A study of Saccharomyces cerevisiae with 47 samples.

Results

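The sites described here are the Abf1 motif sites that occupy a single row of the deposited Abf1 list. Many sites of that list were repeated in identical rows, and a site was taken as a member where its chromosome, start, end and strand occurred in exactly 1 row. Of 1365 distinct Abf1 sites, 343 (25.1%, 95% interval 22.8 to 27.5) were listed once, and 1022 were listed 2 to 5 times. Members were thus chosen by the number of rows, a value of the list itself, and row counts are given below only as a description. The sources used here do not say what a repeated row stands for. The label of these sites rests on the list's name and on this count alone, because no site sequence was at hand to check for the motif.

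Abf1 is a general regulatory factor of budding yeast. It binds a split motif in many promoters, at silencers and at replication origins, where it was first found as an ARS-binding factor. With Reb1 and Rap1 it is known for keeping nucleosomes away from its sites. ATP-dependent remodelers such as INO80, ISW2, Chd1 and RSC slide or evict nucleosomes near such factors.

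In the study, genomic plasmid library DNA was assembled with recombinant yeast histone octamers, and the chromatin was probed by pulldown of a tagged factor. For this DNA the series text gives chromosomes V to IX. Only 69 of the 343 sites listed once (20.1%) and 255 of the 1022 others (25.0%) lay there. Most sites behind the results over the whole genome were thus on other chromosomes. Why the list holds them was not tested. The Abf1 series had 12 pulldowns, 2 per group. The control group received neither Abf1 nor a remodeler, and the other 5 groups received Abf1 with a C-terminal Strep-tag II at 50 nM. Of these, the group labelled TFs-only had no remodeler, and the rest had 1 remodeler each, RSC at 12 nM, and INO80, ISW2 and Chd1 at 24 nM. Inputs without pulldown were also sequenced, and all samples shared the formaldehyde crosslink of 0.05% and the MNase digest. This is a purified system without other cellular proteins. The labels of 12 pulldowns name, in their track descriptions, the factor other than the one in their title, and the titles were followed. The lists carry no sample, so values per sample, the spread between replicates and the depth are unknown here. The intervals below cover counting error over sites, and neighbouring sites are not independent.

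Over the whole genome, position against genes set the sites listed once apart from the rest. A protein-coding start codon lay within 500 bp downstream of 134 of the 343 (39.1%, 95% interval 33.9 to 44.5), against 582 of 1022 sites in 2 or more rows (56.9%, 53.8 to 60.0). The difference was -17.9 percentage points (95% interval -23.7 to -11.8), with p = 1.47e-07 by a two-sided Fisher's exact test after Benjamini-Hochberg adjustment over 13 comparisons. This upstream class covered 21.3% of base pairs. Protein-coding genes held 192 of the sites listed once (56.0%, 50.5 to 61.3) and 466 of the others (45.6%, 42.5 to 48.7), a difference of 10.4 points (4.27 to 16.4; Fisher's exact test, adjusted p = 0.00303). Such genes covered 72.9% of base pairs, so both groups had fewer sites in gene bodies than base pairs alone would give. DNA outside every annotated gene held 151 of the sites listed once (44.0%) and 553 of the others (54.1%; adjusted p = 0.00373 by the same exact test). The intergenic share is nearly the complement of the gene-body share, so they are not separate results.

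Divergent promoters held fewer of the sites listed once over the whole genome. They are a part of the intergenic DNA above, so this result is not separate from the intergenic share. Intergenic DNA between divergently transcribed genes held 58 sites listed once (16.9%, 13.1 to 21.3) and 282 of the others (27.6%, 24.9 to 30.4), a difference of -10.7 points (-15.3 to -5.61; Fisher's exact test, adjusted p = 0.000295). Between genes on the same strand lay 90 of the sites listed once (26.2%) and 262 of the others (25.6%), and that difference of 0.603 points (-4.57 to 6.14) did not pass (adjusted p = 0.900, exact). Between convergent genes lay 3 sites listed once (0.875%) and 8 of the others (0.783%; adjusted p = 1, exact). The 3 were between MGA1 and RIE1, between BUD8 and TAL1, and between HMLALPHA1, in the silent mating-type locus HML, and CHA1.

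Against sites listed in exactly 2 rows, a comparison added after seeing the data, the upstream difference passed and the divergent and gene-body differences did not (adjusted p = 0.573 and 0.292, Fisher's exact test). On chromosomes V to IX, the DNA that the series text names as reconstituted, the upstream shares were 39.1% of 69 sites listed once and 56.1% of 255 others, a difference of -16.9 points that missed the threshold with these fewer sites (adjusted p = 0.0765, exact), and the divergent and gene-body differences turned direction.

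Read by row count, the upstream share was 39.1% at 1 row, 51.7% at 2 rows (136 of 263), 54.2% at 3 rows (189 of 349), 62.2% at 4 rows (166 of 267) and 63.6% at 5 rows (91 of 143). The divergent share was 16.9%, 20.9%, 27.2%, 30.7% and 35.0% in the same order. Sites just outside the rule, in 2 rows, thus lay between the sites listed once and the more repeated ones in both measures. The gene-body share had no such order, with 56.0%, 48.3%, 42.7%, 42.7% and 53.1%.

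**Figure D1:**
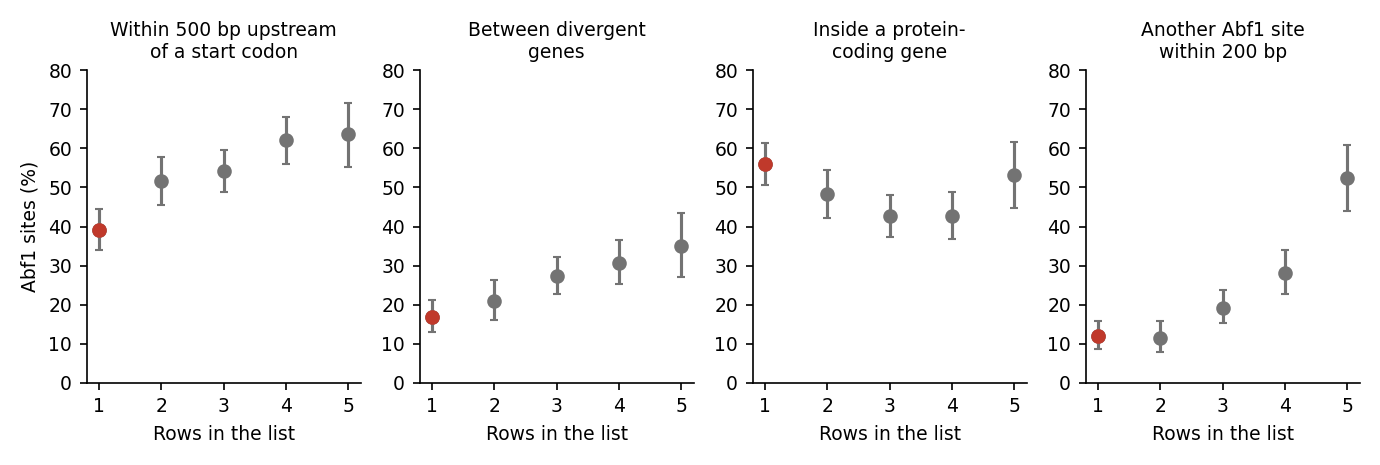
Share of Abf1 sites (percent, points with 95% binomial intervals) in 4 classes, by the number of identical rows in which a site was listed; sites listed in 1 row are red. The upstream share is 39.1% at 1 row and 63.6% at 5 rows, the divergent share 16.9% and 35.0%, and the share with another Abf1 site within 200 bp 12.0% and 52.4%.

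The score deposited with each site had a slightly lower median at 1 row than over the other sites. It is a number of undefined scale, identical in every repeat of a row, and all 1365 scores were multiples of 1/55 within a tolerance of 6e-05. Sites listed once had scores from 10.6 to 15.6, with a median of 11.85 and quartiles of 11.2 and 12.7. The other sites had scores from 10.6 to 16.1, with a median of 12.1. By row count from 1 to 5 the medians were 11.85, 11.89, 12.18, 12.15 and 12.16. At or above the list's median score of 11.98 were 155 sites listed once (45.2%) and 535 of the others (52.3%), a difference of -7.16 points (95% interval -13.2 to -1.04). At or above the upper quartile of 13.07 the shares were 19.2% and 27.0%. No test is given for the score, since how it was made is not stated and its independence from the row count could not be checked.

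Within the sites listed once, the median score was higher before genes than inside them. The 120 that were upstream of a gene and intergenic had a median of 12.5 (quartiles 11.6 and 13.4). The 178 that were inside a gene and not upstream of another had a median of 11.5 (11.0 and 12.1). Another 14 were upstream of one gene and inside its neighbour, with a median of 11.7, and 31 were intergenic without a start codon within 500 bp, with a median of 12.3. Sites in 2 or more rows had medians of 12.7 in the first of these classes and 11.5 in the second. Among sites at or above the list's median score, 54.8% of those listed once were upstream against 69.2% of the others (Fisher's exact test, adjusted p = 0.00931). In the same subset the calls on the gene-body share (36.1% and 30.5%) and the intergenic share (63.9% and 69.5%) were lost, each with an adjusted p = 0.293 by the same exact test.

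**Figure D2:**
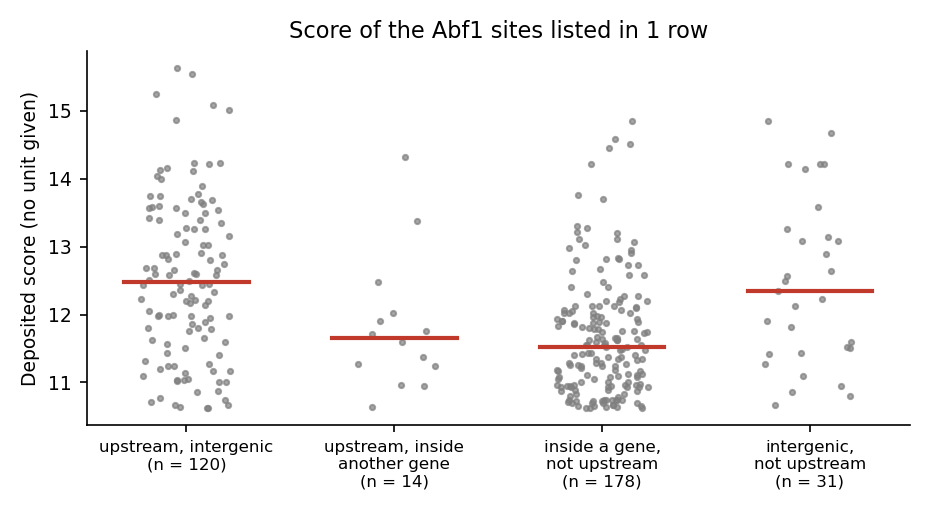
Deposited score (no unit given) of each Abf1 site listed in 1 row, in 4 classes of position; each grey point is a site, spread sideways at random, and red lines are medians. The median is 12.5 for the 120 upstream intergenic sites and 11.5 for the 178 sites inside genes and not upstream.

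The highest-scoring upstream sites listed once stood before genes of varied function. The top one scored 15.6 and lay 246 bp before the start codon of PET20, a gene needed for respiratory growth (chromosome XVI, 251907 to 251922, plus strand, R64 build). The next scored 15.5 and lay 169 bp before DSN1, which encodes a kinetochore subunit (chromosome IX, 375255 to 375270, plus strand). The third scored 15.3, and its centre was 5 bp before the start codon of CDC16, an anaphase-promoting complex subunit gene (chromosome XI, 397246 to 397261). RNP1, an RNA-binding protein gene, had a site 193 bp upstream with a score of 15.1 (chromosome XII, 47649 to 47664). URB1, a gene of large ribosomal subunit assembly, had one at 132 bp with a score of 15.0 (chromosome XI, 417038 to 417053).

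Of the remaining 10 among the top 15, those nearest a start codon were at YIL134C-A (11 bp, score 14.2, also 361 bp before VHS2), at POL31, a DNA polymerase delta subunit gene (125 bp, 14.0, also 319 bp before LSO1), and at MSC6 (128 bp, 14.9). TRP3, of tryptophan synthesis, had its site at 174 bp (14.1), PRP8, the core spliceosome protein gene, at 188 bp (14.2), and ERV25, a p24 cargo protein gene of transport vesicles, at 195 bp (14.1). The exosome gene RRP45 had one at 243 bp (14.2). Farther out were LOC1, of rRNA processing (399 bp, 14.0), YPR202W (404 bp, 14.2) and PRM4 (459 bp, 14.3). The top 15 therefore covered distances from 5 to 459 bp.

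At the other end of the score range, 2 upstream sites had the list's lowest score of 10.6. They lay 135 bp before BSD2, an adaptor gene of the ubiquitin ligase Rsp5, and 135 bp before FRS2, a phenylalanyl-tRNA synthetase subunit gene. The next 3 were at SNT1, a Set3 complex gene (349 bp), PAN3, a deadenylase subunit gene (269 bp, within the end of URA6), and ARF1, a GTPase gene of vesicle traffic (229 bp). These distances lay within the range of the high-scoring sites. The BSD2 site overlapped another site listed once, on the opposite strand and 137 bp before BSD2, which scored 12.6.

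Inside genes, the top-scoring site listed once was in IRA2, a Ras GTPase-activating protein gene, at 15.0% of its length from the start (chromosome XV, 172449 to 172464, score 14.9). DDP1, a polyphosphatase gene, held one at 97.2% of its length (score 14.6), FOL1, of folate synthesis, at 66.5% (14.5), and TSA1, a peroxiredoxin gene, at 70.3% (14.5). The kinesin gene KIP2 held one at 99.5%, which was also the site before PRM4. The remaining 3 of the top 8 were in YNR077C (0.787%, score 14.2), IQG1, a cytokinesis gene (79.3%, 13.8), and PHM7 (41.1%, 13.7). Across the 192 sites in protein-coding genes the median position was 56.7% of the gene (quartiles 24.1 and 80.2). Before the midpoint lay 87 of the 192 (45.3%) against 198 of 466 in 2 or more rows (42.5%), a difference of 2.82 points (-5.42 to 11.2) that did not pass Fisher's exact test (adjusted p = 0.708). No site listed once lay in a gene of another type.

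Upstream sites listed once were nearer to the start codon than the others. Their median distance was 172 bp (quartiles 133 and 243, n = 134), against 197 bp (150 and 305, n = 582). Within 200 bp were 85 of 134 (63.4%, 54.7 to 71.6) and 296 of 582 (50.9%, 46.7 to 55.0), a difference of 12.6 points (3.23 to 21.3; Fisher's exact test, adjusted p = 0.0176). By row count the median distance was 172, 181, 194, 212 and 241 bp. The bin from 100 to 150 bp held 40 of the 134 sites listed once (29.9%) and the bin from 150 to 200 bp held 35 (26.1%), while only 10 lay closer than 100 bp. From 250 to 300 bp there were 4 sites listed once (2.99%, 0.819 to 7.47) and 58 of the others (9.97%, 7.65 to 12.7). The call on nearness was lost in 4 settings, all by Fisher's exact test and with the direction kept. On chromosomes V to IX, with only 27 upstream sites listed once, the difference was larger, at 26.1 points (66.7% and 40.6%, adjusted p = 0.0765, exact). It was 11.4 points among sites at or above the median score (adjusted p = 0.151, exact) and 8.40 points on the other chromosomes (adjusted p = 0.221, exact). Against sites in exactly 2 rows it was 5.34 points (adjusted p = 0.626, exact).

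**Figure D3:**
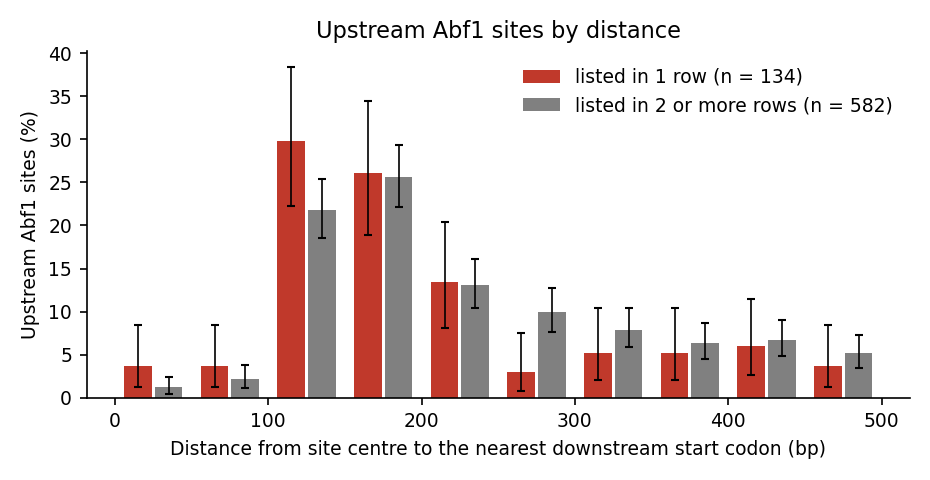
Distance from the site centre to the nearest downstream start codon (bp, bins of 50 bp) for Abf1 sites within 500 bp upstream, as percent of the upstream sites in each group with 95% binomial intervals; red bars are the 134 sites listed in 1 row and grey bars the 582 listed in 2 or more rows. Both groups peak between 100 and 200 bp, and from 250 to 300 bp the red bar is at 2.99% and the grey bar at 9.97%.

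No preference for the gene's strand passed the test. Of the sites listed once, 169 were on the plus strand and 174 on the minus strand. Among those upstream of 1 gene, 52 of 102 (51.0%) were on that gene's strand, against 200 of 407 (49.1%) of the others, a difference of 1.84 points (-8.88 to 12.5) that did not pass Fisher's exact test (adjusted p = 0.876). Upstream of 2 or more genes at once were 32 sites listed once.

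A site listed once lay within 500 bp upstream of 165 of 6002 protein-coding genes (2.75%), and 654 (10.9%) had a site in 2 or more rows. Both kinds stood before 10 genes, so that 155 genes, 19.2% of the 809 with any Abf1 site, had sites listed once only. A Reb1 site was also present at 9 of the 165, against 81 of the 809 genes with any Abf1 site, and this was not tested. BSD2, ERV25 and PRM4 had 2 sites listed once each, a pair of overlapping matches in each case, and no gene had 3. The gene counts of the lists below are to be read against the 2.75% over all protein-coding genes, or for RNA genes against 2.75% of all 6431 annotated nuclear genes, and no test was made on a list.

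Proteasome genes had sites listed once in 5 of 35 cases (14.3%). None of the 5 had a site in more rows, as for 155 of all 165 genes with a site listed once. The 5 were RPN13, a ubiquitin receptor of the regulatory particle (132 bp), RPN11, its deubiquitinase (146 bp), the core particle alpha subunits PRE10 and PUP2 (157 bp each) and the ATPase RPT3 (214 bp). Scores ran from 10.7 at RPT3 to 13.3 at PUP2. Another 7 proteasome genes (20.0%) had sites in 2 or more rows.

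Ribosome biogenesis genes had sites listed once in 12 of 135 cases (8.89%), and 33 genes (24.4%) had sites in 2 or more rows. None of the 12 had both kinds, as for 155 of all 165 genes with a site listed once. Among the sites listed once, nearest to their start codons were those of RRP8, an rRNA methyltransferase (126 bp), LCP5, of the small-subunit processome (128 bp), EBP2, of large-subunit assembly (141 bp), and LTV1, of small-subunit export (149 bp). The site at LTV1 also stood 151 bp before RPC25, an RNA polymerase III subunit gene, with a score of 11.0. That at LCP5 also stood 174 bp before NSA2, another large-subunit assembly gene. RPC10, a subunit shared by the nuclear RNA polymerases, was the other of 2 polymerase genes among 31 (6.45%), at 166 bp.

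The next lists are genes of translation, to be read against 2.75% of all protein-coding genes with a site listed once and 10.9% with a more repeated one. Translation factor genes had 1 of 41 with a site listed once, SUP35, the release factor gene (2.44%, 180 bp), against 17 (41.5%) with a site in 2 or more rows. Aminoacyl-tRNA synthetase genes had 2 of 23 (8.70%), FRS2 (135 bp) and ALA1, for alanyl-tRNA (259 bp), against 10 (43.5%). Cytosolic ribosomal protein genes had 0 of 138, against 10 (7.25%) in 2 or more rows. Mitochondrial ribosomal protein genes had 4 of 75 (5.33%), MRPS18 (130 bp), SWS2 (148 bp), MRPL16 (172 bp) and MRP7 (350 bp), of which MRPS18 and MRPL16 also had a site in more rows.

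Chromatin remodeler genes had 3 of 59 (5.08%). These were ARP6, of the SWR1 complex (98 bp), RSC4, of RSC (137 bp), and TAF14, shared by several complexes (162 bp). Silencing genes had 2 of 28 (7.14%), RIF2, of telomere capping (431 bp), and SUM1, a repressor of meiotic genes (432 bp). The site at SUM1 stood 317 bp before its divergent neighbour TFB1, a TFIIH subunit gene and the only one of 25 nucleotide excision repair genes with a site listed once (4.00%), beside another in more rows. DNA replication genes had 2 of 56 (3.57%), POL31 (125 bp) and RFA2, a subunit of the single-strand binding protein RPA (131 bp).

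The other lists were near the background or had no member. Respiration genes had 2 of 80 (2.50%), ATP14 (204 bp) and COX6 (297 bp). Vacuolar sorting genes had 2 of 75 (2.67%), SNF8, of ESCRT-II (137 bp), and VMA13, of the V-ATPase (173 bp). Kinetochore and checkpoint genes had 1 of 51 (1.96%), DSN1. Glycolysis had 0 of 19, histones 0 of 11 and general regulatory factors 0 of 6. ABF1 itself had 2 sites in more rows and none listed once, and REB1, INO80, ISW2, CHD1 and STH1 had none listed once.

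Genes for tRNAs had a site listed once within 500 bp upstream in 6 of 275 cases (2.18%), at 325 to 465 bp, and a more repeated site in 3. Genes for snoRNAs, which guide rRNA modification, had one in 6 of 76 cases (7.89%) and a more repeated one in 3 (3.95%). Nearest were SNR9 (133 bp), SNR24 (273 bp), SNR57 (312 bp) and SNR46 (336 bp). The sites at SNR68 and SNR64 (375 and 484 bp) were those before YIL134C-A and TRP3 named above.

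**Figure D4:**
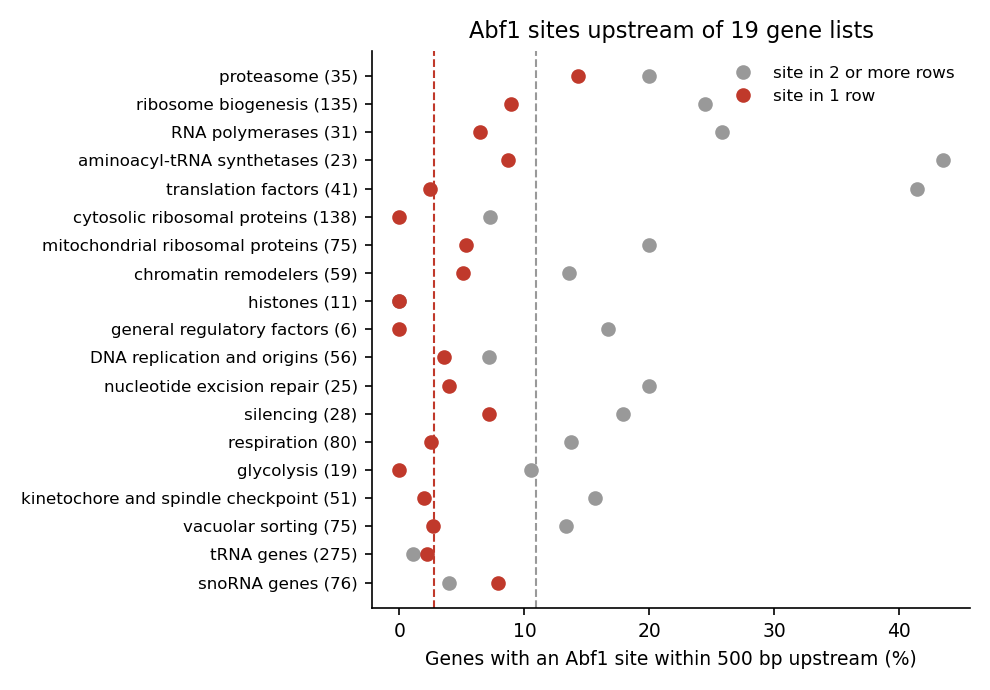
Percent of the genes in each list (number of genes in parentheses) with an Abf1 site within 500 bp upstream, listed in 1 row (red) or in 2 or more rows (grey); dashed lines mark 2.75% and 10.9% of all protein-coding genes, and for histones both points lie at 0. Proteasome genes have the highest share with a site listed once, 14.3%, and the tRNA and snoRNA lists are the 2 in which the red point lies to the right of the grey one.

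Close neighbours among the Abf1 sites had nearly always the same row count. Of 123 pairs with centres up to 50 bp apart, 110 (89.4%) had equal row counts, against 21 of 49 pairs (42.9%) from 50 to 100 bp and 16 of 55 (29.1%) from 200 to 500 bp. Sites within 50 bp of each other are therefore not separate observations of the row count. From 50 to 100 bp, 14 pairs included a site listed once, and most of these came from a single run of sites in VHS3. Sites listed once took part in 15 of the 123 pairs, and in 14 of these both sites were listed once. The exception was in FAB1, a lipid kinase gene on chromosome VI, where a site listed once (184645 to 184660) overlapped one in 2 rows with centres 14 bp apart.

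Another Abf1 site lay within 200 bp of 41 sites listed once (12.0%, 8.72 to 15.9) and of 247 of the others (24.2%, 21.6 to 26.9), a difference of -12.2 points (-16.3 to -7.60, Fisher's exact test, adjusted p = 5.38e-06). After merging of sites up to 50 bp apart (chosen after seeing the data) the shares were 4.86% and 10.8% (adjusted p = 0.00529, exact). Against sites in exactly 2 rows, of which 11.4% had such a neighbour, the difference was 0.547 points in the opposite direction and did not pass (adjusted p = 0.974, exact). On chromosomes V to IX the shares were 15.9% and 31.0%, a difference of -15.0 points that missed the threshold (adjusted p = 0.0765, exact). The closest pairs lay in DED81, the asparaginyl-tRNA synthetase gene, and ULP2, a SUMO protease gene, with centres 1 bp apart on opposite strands. Pairs 2 bp apart on opposite strands lay before BSD2 and ERV25 and in RAD2, an excision repair nuclease gene. After FAB1, the closest pairs with a more repeated site lay in SEC53 (53 bp), VHS3 (54 bp) and RTT103 (57 bp). At VHS3, 2 sites listed once adjoined a run of sites in 3 rows.

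Reb1 sites were less often near Abf1 sites listed once. A Reb1 site lay within 200 bp of 14 of them (4.08%, 2.25 to 6.75) and of 86 of the others (8.41%, 6.79 to 10.3), a difference of -4.33 points (-6.81 to -1.26; Fisher's exact test, adjusted p = 0.0173). The call was lost at 500 bp (11.7% and 14.5%, adjusted p = 0.334, exact), on chromosomes V to IX (0.376), on the other chromosomes (0.0608) and against sites in 2 rows (0.573). The Reb1 site was itself listed in 2 or more rows in all 14 cases, and 18.2% of 942 Reb1 sites were listed once. Both cases in ASF1 shared the same Reb1 site, so the 14 cases are not all distinct Reb1 sites. The closest pair, 17 bp apart, lay 173 bp before VMA13. The next were near RGT2, a glucose sensor gene (20 bp), before POP2, a Ccr4-Not deadenylase gene (21 bp), before ARF1 (38 bp), and before BUR6, a transcription regulator gene (51 bp). In 4 of these 5 the Abf1 site scored below the list's median.

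Sites listed once were found on all 16 chromosomes, at 28.5 per Mb. Chromosome XIV had the highest density, 45.9 per Mb, and the highest share, 36 of its 102 Abf1 sites (35.3%, 26.1 to 45.4). Chromosome I had the lowest share, 5 of 38 (13.2%, 4.41 to 28.1). The interval of chromosome XIV alone excluded the genome-wide 25.1%. The 16 intervals were not adjusted for their number, and no single chromosome was tested. Chromosomes V to IX held 69 of the sites listed once (20.1%) and 255 of the others (25.0%), a difference of -4.83 points (-9.60 to 0.395) that did not pass (Fisher's exact test, adjusted p = 0.127). Against sites in 4 or 5 rows, of which 27.1% lay there, it passed (adjusted p = 0.0377, exact).

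**Figure D5:**
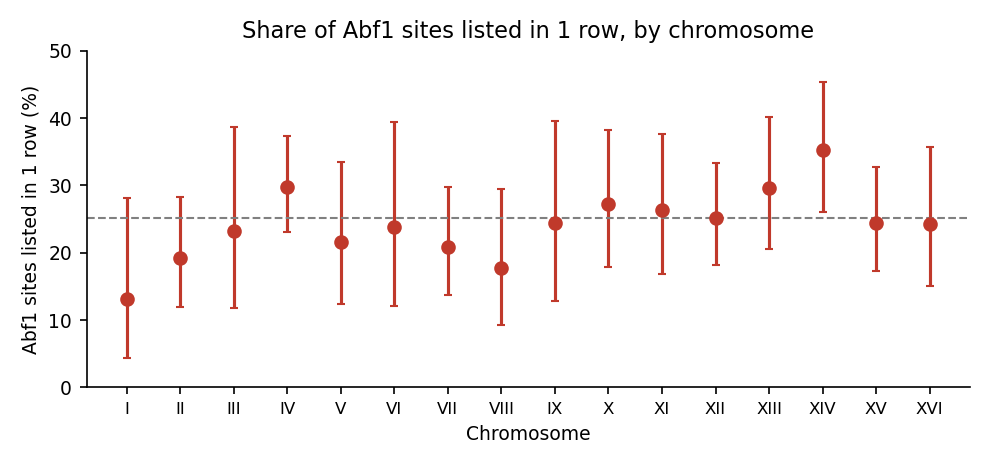
Percent of the Abf1 sites of each chromosome that were listed in 1 row, with 95% binomial intervals; the dashed line is the 25.1% of all 1365 sites. Chromosome XIV lies highest at 35.3% and chromosome I lowest at 13.2%.

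Near chromosome ends the sites listed once included a set with 1 common score. Within 20 kb of an end of the annotated chromosome lay 8 sites listed once (2.33%) and 16 of the others (1.57%), a difference of 0.767 points (-0.730 to 3.05) that did not pass Fisher's exact test (adjusted p = 0.501). Of the 16, 11 were in 3 rows, 3.15% of the 349 sites in 3 rows and more than the share of sites listed once. In 4 or 5 rows was 1 of the 16, where 410 of the 1022 lay genome-wide. Of the 8, 5 had the score 14.2182, near COS6 and YRF1-3 on chromosome VII, beside PAU18 and PAU4 at both ends of chromosome XII, in YNR077C on chromosome XIV and before YPR202W on chromosome XVI. COS, PAU and YRF1 genes are subtelomeric families with copies at several chromosome ends. Genome-wide 10 sites had this score, and a sixth within 20 kb of an end, on chromosome VI, was in 3 rows. The score was singled out after its values were seen.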

How the data were processed

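The authors deposited 2 lists for the whole series, without a header, each row giving a position, a strand and a score. Per their names they rest on in vitro ChIP peaks and on a position weight matrix. The score was deposited by the authors without a definition. The submitters' processing notes name Bowtie, sacCer3 and R64 without a role. The sources used here give no motif scanner, peak caller, threshold or pooling.

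The Abf1 list held 3699 rows and the Reb1 list 2808 rows. Identical positions on the same strand were counted as 1 site, which gave 1365 and 942 sites. Starts were read as 1-based, which is not stated, so positions are uncertain by 1 bp. Site centres (rounded down) were placed against the RefSeq R64 table of 6431 nuclear genes, 6002 protein-coding, whose models are coding extents. Strand came from the systematic name, which 1 gene lacked. Shares have exact 95% binomial intervals, and differences have Newcombe intervals. Sites were compared by Fisher's exact test, two-sided, with Benjamini-Hochberg adjustment over 13 comparisons and a threshold of 0.05. In the settings restricted to chromosomes V to IX or to the others, the chromosome share dropped out, so the adjustment covered 1 comparison fewer. Since a site is no replicate, the p-values hold for these lists alone.

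Members, the 19 gene lists (taken by symbol) and tests were chosen with earlier results of these data known. Named genes were those at the 15 highest and 5 lowest upstream sites, the 8 highest sites in genes, up to 4 nearest per list, the 3 with most sites, those at the 5 closest pairs with each factor, and ABF1, REB1, INO80, ISW2, CHD1 and STH1. Other genes named were chosen after their values were seen. The planned look at site sequences was not done, since no genome sequence was at hand. The counting of the upstream share was tested on simulated data, and the other counts were not. The tools were scipy 1.17.1 and statsmodels 0.14.6 for tests, pandas 2.3.3 and numpy 2.4.6 for tables, and matplotlib 3.10.9 for plots, under Python 3.11.15.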

Additional observations from a re-analysis of the deposited data

Results flagged for a closer look

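On chromosomes V to IX, 3 of the 7 differences that passed over the whole genome differed from those on the other chromosomes, by a likelihood-ratio test of the interaction in a logistic model, Benjamini-Hochberg adjusted over the 7 and added after seeing the data. The test is over sites, not samples (n = 1365). The intergenic and gene-body shares are nearly complements, and the divergent share is a part of the intergenic share. Their differences are therefore not separate results. The intergenic share was 50.7% of 69 sites listed once and 45.5% of 255 others on chromosomes V to IX, against 42.3% of 274 and 57.0% of 767 elsewhere, so the differences of 5.23 and -14.6 points lay 19.9 points apart (adjusted p = 0.0323, n = 1365 sites). The share inside protein-coding genes differed by -4.06 points there and 14.6 elsewhere, a gap of -18.7 points (adjusted p = 0.0333, n = 1365 sites). The divergent share differed by 2.68 points (17 of 69 and 56 of 255) and by -14.5 points (41 of 274 and 226 of 767), a gap of 17.2 points (adjusted p = 0.0323, n = 1365 sites). For the upstream share the differences of -16.9 and -18.2 points lay 1.24 points apart (adjusted p = 0.929, n = 1365 sites). The part of the reconstituted DNA in these differences was not tested.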

How the results depend on the processing

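Of 63 alternative values of the 7 differences that passed, 44 kept direction and side of the threshold. Among the 7, the intergenic and gene-body shares are nearly complements. The divergent share is a part of the intergenic share, so these values are not separate results. Differences below are in percentage points, sites listed once minus the others. With sites at or above the median score the calls on intergenic (-5.66), gene-body (5.66) and near-start shares (11.4) were lost, and the shares between convergent genes (-0.935), on the gene's strand (-0.450) and before the gene midpoint (-3.66) turned direction without a call. On chromosomes V to IX the upstream (-16.9), near-start (26.1), Abf1 neighbour (-15.0) and Reb1 neighbour (-5.73) calls were lost, and the intergenic (5.23), gene-body (-4.06) and divergent (2.68) differences turned direction. On the other chromosomes the near-start (8.40) and Reb1 neighbour (-3.96) calls were lost and the tandem share (-0.0852) turned. Against sites in exactly 2 rows the calls on intergenic (-7.69), gene-body (7.69), divergent (-4.00), near-start (5.34) and Reb1 neighbour shares (-2.00) were lost, and the tandem (-3.80) and Abf1 neighbour (0.547) differences turned. Against sites in 4 or 5 rows the shares on chromosomes V to IX (-6.96) and near chromosome ends (2.09) passed, and that on the gene's strand (-5.67) turned. With sites within 50 bp merged the tandem share turned (-0.360). At 500 bp the Reb1 neighbour call was lost (-2.82). Genes with a site listed once numbered 107 with sites at or above the median score and 34 on chromosomes V to IX, against 165, since fewer sites entered. The causes of the other changes were not tested. No paired analysis was possible because the lists carry no sample, and for the same reason no replicate could be left out. Overlap merging and a 0-based reading changed no call.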

Other observations

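Spacing within close pairs of sites listed once took few values. Of the 14 pairs within 50 bp, 7 were on opposite strands, and their centres were 1 bp (2 pairs) or 2 bp (5 pairs) apart. The other 7 pairs were on the same strand and inside genes, in PIM1, a mitochondrial protease gene, in IFH1, a coactivator of ribosomal protein genes (3 pairs), in VHS3, in ASF1, a histone chaperone gene, and in INN1, a cytokinesis gene. Their gaps ran from 3 to 21 bp, and all 7 were multiples of 3 bp. In the whole Abf1 list, 52 of 55 same-strand pairs inside genes and within 50 bp had such a gap, among 64 of 80 same-strand pairs in any position. These spacings were noticed in the data, and several pairs come from the same run of sites.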
